A study of Rattus norvegicus with 8 samples.

Results

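Superoxide dismutases, catalase and glutathione peroxidases are the enzymes that take superoxide to hydrogen peroxide and hydrogen peroxide or lipid peroxides to water or alcohols. The 10 genes described here were chosen by name, with earlier results of these data known. They are the superoxide dismutases Sod1, Sod2 and Sod3, catalase (Cat) and some of the glutathione peroxidases (Gpx1, Gpx3, Gpx4, Gpx7 and Gpx8). Added to these enzymes is Selenop, which encodes the selenium carrier selenoprotein P. All 10 were found among the 15037 named genes on the array, each with 1 probe set. They were measured in H9c2 cells, a myoblast line derived from embryonic rat heart, on 1 rat Clariom S Pico array per sample. The study crossed gravity regime with nanoceria, nanoparticles of cerium oxide that are of interest because they scavenge reactive oxygen species. Cells treated with 100 µg/ml of serum-coated nanoceria aboard the International Space Station gave 2 arrays and untreated cells there gave 1. On ground, cells with the same treatment gave 3 arrays and untreated cells gave 2, labelled replicates 1 and 3.

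Every culture was seeded at 35000 cells per square centimetre on coverslips and kept in flight hardware in low-serum differentiation medium that contained insulin, transferrin and sodium selenite. Selenite, the selenium source for selenoproteins, was thus shared by the treated and untreated groups. Flight cultures reached the station on day 7, were placed at 37 °C and received fixative on day 10. Those on ground followed afterwards under the logged flight temperatures, so gravity regime and culture run cannot be told apart. The space groups also went through launch, which the ground groups did not. All cultures came from 1 clonal line, and nothing in the labels shows whether replicates were independent cultures. The p-values therefore reflect only how these samples spread, which may be technical. Precision was limited by how few arrays there were, and the untreated space group had no replicate.

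The 3 superoxide dismutases work in different places: Sod1 in the cytosol with copper and zinc, Sod2 in mitochondria with manganese, and Sod3 outside the cell with copper and zinc. Catalase breaks down hydrogen peroxide in peroxisomes without using up a reducing partner. Glutathione peroxidases spend glutathione or another thiol, and Gpx1, Gpx3 and Gpx4 carry selenocysteine at the active site, whereas Gpx7 and Gpx8 are cysteine enzymes of the endoplasmic reticulum. In muscle cells, whose mitochondria and oxidases make superoxide, these enzymes are regarded as the main direct defence.

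Promoter windows were available from RefSeq (build GRCr8) for 8 of the 10 genes, all but Gpx8 and Sod3, and 4 are printed because they belong to the genes whose levels varied most between single arrays or varied together. Each is the 250 bases before an annotated transcript start, written 5′ to 3′ on the strand of the gene. Capitals mark matches, on either strand, to the CCAAT box (CCAAT), the GC box (GGGCGG), the TATA box (TATAAA), the E box (CACGTG) or the core of the antioxidant response element (TGACNNNGC), the motif bound by the transcription factor NRF2. The windows lie at chr2:54225486-54225735 on the plus strand (Selenop), at chr3:110329527-110329776 on the minus strand (Cat), at chr1:50050169-50050418 on the minus strand (Sod2) and at chr7:10303630-10303879 on the minus strand (Gpx4).
Selenop: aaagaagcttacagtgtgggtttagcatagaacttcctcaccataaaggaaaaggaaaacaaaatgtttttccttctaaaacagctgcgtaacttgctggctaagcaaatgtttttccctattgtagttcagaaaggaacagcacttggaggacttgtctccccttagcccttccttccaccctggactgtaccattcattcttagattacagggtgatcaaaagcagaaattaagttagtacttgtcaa
Cat: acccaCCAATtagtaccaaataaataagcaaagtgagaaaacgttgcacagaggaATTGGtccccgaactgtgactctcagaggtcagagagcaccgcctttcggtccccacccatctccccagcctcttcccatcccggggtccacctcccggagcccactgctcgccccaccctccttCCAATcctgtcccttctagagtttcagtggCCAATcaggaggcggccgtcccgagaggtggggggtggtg
Sod2: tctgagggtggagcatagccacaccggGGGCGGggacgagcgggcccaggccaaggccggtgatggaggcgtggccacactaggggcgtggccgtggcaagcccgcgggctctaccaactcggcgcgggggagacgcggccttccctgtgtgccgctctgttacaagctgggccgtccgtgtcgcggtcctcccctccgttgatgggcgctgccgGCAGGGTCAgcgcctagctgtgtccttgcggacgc
Gpx4: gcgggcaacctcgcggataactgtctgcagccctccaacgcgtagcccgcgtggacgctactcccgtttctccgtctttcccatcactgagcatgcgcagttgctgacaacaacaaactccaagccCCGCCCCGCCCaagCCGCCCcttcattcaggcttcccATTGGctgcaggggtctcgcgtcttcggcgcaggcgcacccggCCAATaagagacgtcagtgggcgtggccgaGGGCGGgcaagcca

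The window of Cat held 4 CCAAT matches, with first bases at 245, 195, 70 and 40 bases before the start. The outermost Gpx4 window held 2 CCAAT matches and 4 GC box matches, of which 2 share 1 base. The Sod2 window held the only match to the antioxidant response element core among the 8 genes, on the opposite strand with its first base 35 bases before the start. No motif matched in the printed Selenop window, and the window of a downstream Selenop start held a TATA box with its first base 29 bases before that start. Over all windows of the 8 genes, a GC box was found for 6, a CCAAT box for 3, a TATA box for 2 and an E box for 0. Among all 33469 promoter windows of this length, 30.5% held a GC box, 34% a CCAAT box, 12.9% a TATA box, 10.1% the antioxidant response element core and 5.59% an E box. The counts for the 8 genes are by gene, with a match in any of their 11 windows, whereas these shares are by single window. The 2 are therefore not on the same footing. All are matches of letters and not measured binding.

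Values below are log2 of the deposited intensity, in which a difference of 1 is a factor of 2, and levels are compared within a gene only. Median intensity per array ran from 107 to 117. With no detection values to hand, a dim probe set such as that of Selenop cannot be placed above or at background. As a check of the cell label, the mean levels of 11 measured muscle identity genes were ranked among all probe sets. Chrna1 was lowest, above 27% of probe sets, the myogenic factor Myod1 lay above 60.6%, the muscle genes Des and Tnnt2 above 58.7% and 94.9%, and Vim, which many mesenchymal cells share, was highest at 99.9%. Of 10 markers of other cell types, the endothelial genes Pecam1 and Cdh5, the leukocyte gene Ptprc, the epithelial gene Epcam, the hepatocyte gene Alb and the glial gene Gfap lay above 3.73% to 21.3% of probe sets. The other 4, Krt18, Cd68, Tubb3 and Krt8, lay above 44.6%, 56.6%, 69.6% and 97%, so the ranges of both lists overlapped. Ground untreated replicate 3 stood apart from the other 7 arrays. All 13 measured genes of a 15-gene cell cycle list were lowest there, with a summed log2 level of 86.9 against 115 to 123 on the other arrays. Of 13 measured NRF2 target genes, 12 were highest there, with a summed level of 141 against 121 to 127. Ground nanoceria replicate 1 stood apart in the genes described here. Of the 10 genes, 6 were highest on that array and 3 on ground untreated replicate 3, against 16.3% and 12.9% of all probe sets. Because of this, values without these arrays are given where they bear on a result.

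Sod1, the cytosolic enzyme, had the narrowest spread of the family. It measured 12.85 and 12.96 in nanoceria-treated cells in space and 12.89 in untreated cells in space, against 13.19, 12.90 and 12.93 in treated and 12.86 and 13.14 in untreated cells on ground. The whole range over 8 arrays was 0.34, and the values above 13 came from ground nanoceria replicate 1 and ground untreated replicate 3. Space and ground arrays overlapped, as did treated and untreated arrays.

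Sod2, the mitochondrial enzyme, was 9.96 and 9.86 in treated and 9.63 in untreated cells in space, against 10.46, 10.04 and 10.00 in treated and 9.97 and 10.43 in untreated cells on ground. All 3 space values lay below all 5 ground values, but the gap was narrow, between 9.962 on the highest space array and 9.968 on the lowest ground array. Sod2 was the only member of the 10 whose space and ground arrays did not overlap.

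Sod3, the secreted enzyme, was 8.56 and 8.93 in treated and 8.76 in untreated cells in space, against 9.76, 9.60 and 8.81 in treated and 8.12 and 9.18 in untreated cells on ground. The ground arrays held both the highest and the lowest values, a range of 1.64, while the 3 space arrays lay within 0.36 of each other. Ground nanoceria replicates 1 and 2 were the highest of all, and replicate 3 lay among the space arrays.

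Catalase was nearly level on 7 arrays and high on 1. Cat measured 11.91 and 12.00 in treated and 11.95 in untreated cells in space, and 11.79, 11.95 and 12.00 in treated and 11.95 and 13.17 in untreated cells on ground. Ground untreated replicate 3, at 13.17, lay 1.16 above the next array, while the other 7 arrays lay within 0.22 of each other. The same array had the high NRF2 target and low cell cycle levels given above, and the part of either in the catalase value was not tested.

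Gpx1, the cytosolic and mitochondrial peroxidase, measured 12.37 and 12.13 in treated and 11.79 in untreated cells in space, against 12.87, 12.36 and 12.42 in treated and 12.12 and 12.65 in untreated cells on ground. In either regime the lowest value came from an untreated array, at 11.79 in space and 12.12 on ground. Gpx4, which reduces lipid peroxides within membranes and restrains ferroptosis, was 11.33 and 11.21 in treated and 10.92 in untreated cells in space, against 11.93, 11.24 and 11.29 in treated and 10.97 and 11.55 in untreated cells on ground. Its order of arrays was close to that of Gpx1 (Spearman's rho 0.976 over 8 arrays), with the same arrays at the top and the bottom. The Gpx4 probe set is annotated to 2 transcripts, so its isoforms were not separated.

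Gpx7, a peroxidase of the endoplasmic reticulum that aids oxidative protein folding, measured 10.38 and 10.49 in treated and 10.35 in untreated cells in space, against 11.12, 10.87 and 10.77 in treated and 10.47 and 9.87 in untreated cells on ground. The 3 treated ground arrays were the 3 highest of all 8, and they did not overlap with the untreated ground arrays. Ground untreated replicate 3, high for most of the family, was the lowest for Gpx7. Gpx8, a related membrane enzyme of the same compartment, behaved differently, at 9.08 and 8.83 in treated and 8.94 in untreated cells in space, against 9.68, 8.97 and 8.24 in treated and 8.70 and 9.76 in untreated cells on ground. Treated ground cells alone spanned 1.44 for Gpx8, nearly its whole range of 1.52.

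Gpx3, a peroxidase secreted into plasma, was dim, with a mean level above 41.1% of probe sets. It was 6.24 and 6.12 in treated and 5.95 in untreated cells in space, against 6.01, 6.12 and 6.17 in treated and 6.86 and 6.18 in untreated cells on ground. Ground untreated replicate 1, at 6.86, stood above the rest by 0.62.

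Selenop had the widest range of the 10, 1.91, at a low mean level above 24.5% of probe sets. It measured 4.81 and 4.64 in treated and 5.92 in untreated cells in space, against 4.78, 4.69 and 4.81 in treated and 5.06 and 6.55 in untreated cells on ground. All 5 treated arrays lay between 4.64 and 4.81, and all 3 untreated arrays lay above them. The treated arrays had an SD of 0.08 (n = 5) and the untreated arrays an SD of 0.75 (n = 3), so the spread lay almost wholly among untreated arrays. The Selenop probe set is annotated to 2 transcripts, which were not separated.

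**Figure D1:**
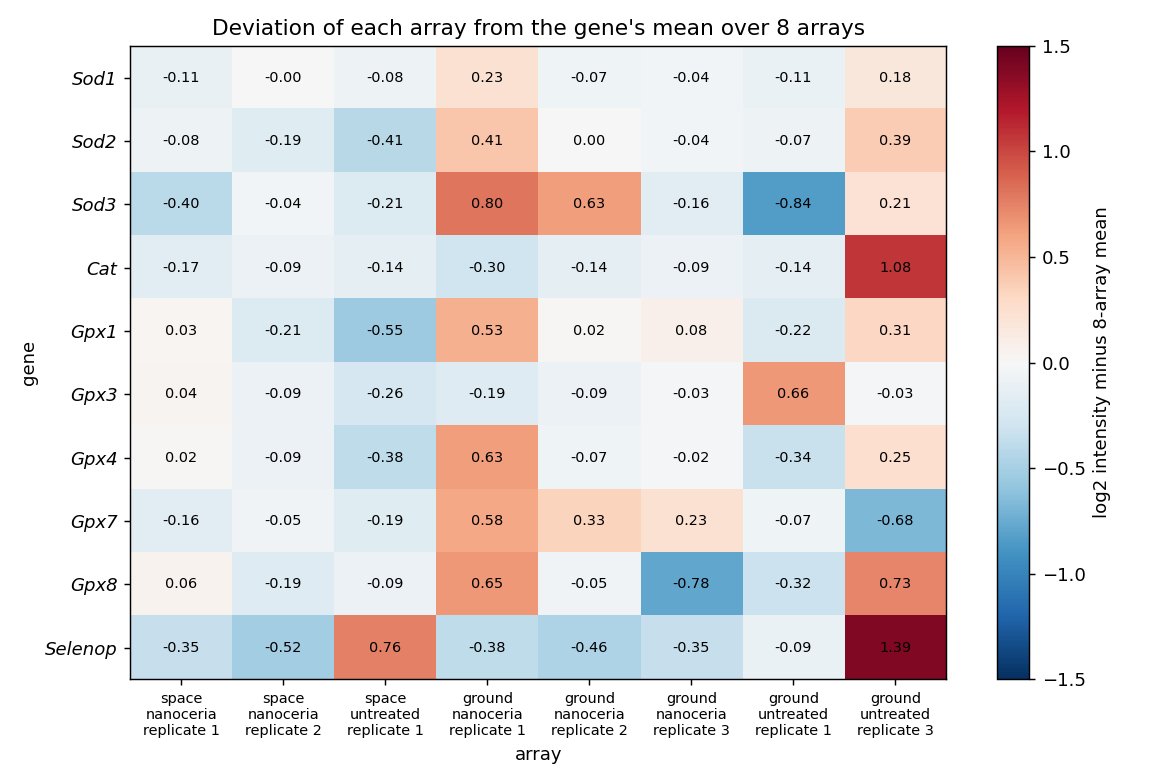
Deviation of each array (columns) from the mean of the gene over 8 arrays (rows), in log2 units, with red above and blue below the mean. The column of ground nanoceria replicate 1 is red for Sod1, Sod2, Sod3, Gpx1, Gpx4, Gpx7 and Gpx8, and that of ground untreated replicate 3 is reddest for Selenop (1.39) and Cat (1.08).

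Space and ground arrays were compared with treatment fitted alongside regime, to ask whether levels of the antioxidant enzymes differed after flight. In RNA from whole cultures, fewer cells that make a transcript and less transcript per cell cannot be told apart. Of the 10 genes, 9 were lower in space, with a median difference of -0.22 on the log2 scale, beside a median of -0.04 and 58.7% lower among all 23188 probe sets. None passed limma with Benjamini-Hochberg adjustment over all probe sets (0 of 10), nor did any other probe set (0% called). At an unadjusted p below 0.05 there were also 0 of the 10, beside 9.56% of all probe sets. The differences nearest to that limit were those of Gpx1, -0.40 ± 0.18 (SE, adjusted p = 0.533), and Sod2, -0.37 ± 0.17 (adjusted p = 0.537). Sod3 lay at -0.38 ± 0.31, Gpx4 at -0.26 ± 0.20 and Gpx7 at -0.25 ± 0.20. Values for Cat, Gpx3, Gpx8 and Sod1 ran from -0.19 to -0.10, and Selenop lay at 0.02 ± 0.29. The 95% confidence interval for Sod1 was -0.40 to 0.19, the narrowest of the 10, while that for Gpx8 reached from -0.89 to 0.67. Groups did not overlap for 1 of the 10 (Sod2, lower), beside 5.11% of all probe sets in either direction. Without ground nanoceria replicate 1 and ground untreated replicate 3, a choice made after the data were seen, 7 of the 10 were lower and the median was -0.05. In that fit Gpx1 lay at -0.20, Sod2 at -0.19 and Gpx4 at -0.01, and Gpx7 at -0.30. The share of all probe sets lower in space was not taken for that fit. Leaving out single arrays moved Gpx7 between -0.14 (without space nanoceria replicate 1) and -0.49 (without the untreated space array).

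Treated and untreated cells were compared over both regimes to ask whether an added scavenger was accompanied by other levels of the cell's own enzymes. Of the 10 genes, 6 were higher and 4 lower with nanoceria, with a median difference of 0.04. Among all probe sets 56% were higher, with a median of 0.03. None passed after adjustment (0 of 10, and 0% of all probe sets). At an unadjusted p below 0.05 there were 2 of the 10, beside 9.63% of all probe sets. These were Selenop, at -1.10 ± 0.29 (adjusted p = 0.412 in limma), and Gpx7, at 0.51 ± 0.20 (adjusted p = 0.478). The Selenop estimate corresponds to 0.467 times the untreated intensity, with a 95% confidence interval of -1.76 to -0.44 on the log2 scale. That interval assumes equal spread on both sides, whereas the SD was 0.08 (n = 5) in treated and 0.75 (n = 3) in untreated arrays. The factor is of intensities only, since this dim probe set cannot be placed above or at background. Selenop was also the only gene of the 10 whose treated and untreated arrays did not overlap, beside 4.74% of all probe sets in either direction. It held rank 255 of 23188 when probe sets were ordered by p. Its difference was -0.72 without ground untreated replicate 3 and -1.51 without ground untreated replicate 1. The Gpx7 difference was 0.28 without ground untreated replicate 3. With both arrays that stood apart left out, 7 of the 10 were higher, and Selenop lay at -0.75 ± 0.22 (adjusted p = 0.607). In that fit Gpx7 lay at 0.21 ± 0.14, Gpx1 at 0.36 ± 0.14 and Gpx4 at 0.32 ± 0.13. The adjusted p in limma was 0.63 for Gpx1 and for Gpx4. No share over all probe sets was taken for that fit, so its count has no background beside it.

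The treated and untreated arrays of the other 8 members overlapped. Sod3 lay at 0.47 ± 0.31, and at 0.11 without ground untreated replicate 1 or 0.74 without the untreated space array. Cat lay at -0.41 ± 0.27. Its value was -0.01 without ground untreated replicate 3, and the 2 treated space arrays averaged 0.01 above the untreated one. Gpx1 and Gpx4 each lay at 0.27, with SEs of 0.18 and 0.20. The remaining values were 0.08 for Sod2, 0.01 for Sod1, -0.16 for Gpx8 and -0.19 for Gpx3. The 95% confidence interval for Sod1, -0.28 to 0.30, bounds its difference most tightly, whereas those for Sod3 (-0.25 to 1.19) and Cat (-1.02 to 0.20) reach past a factor of 2 on one side.

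**Figure D2:**
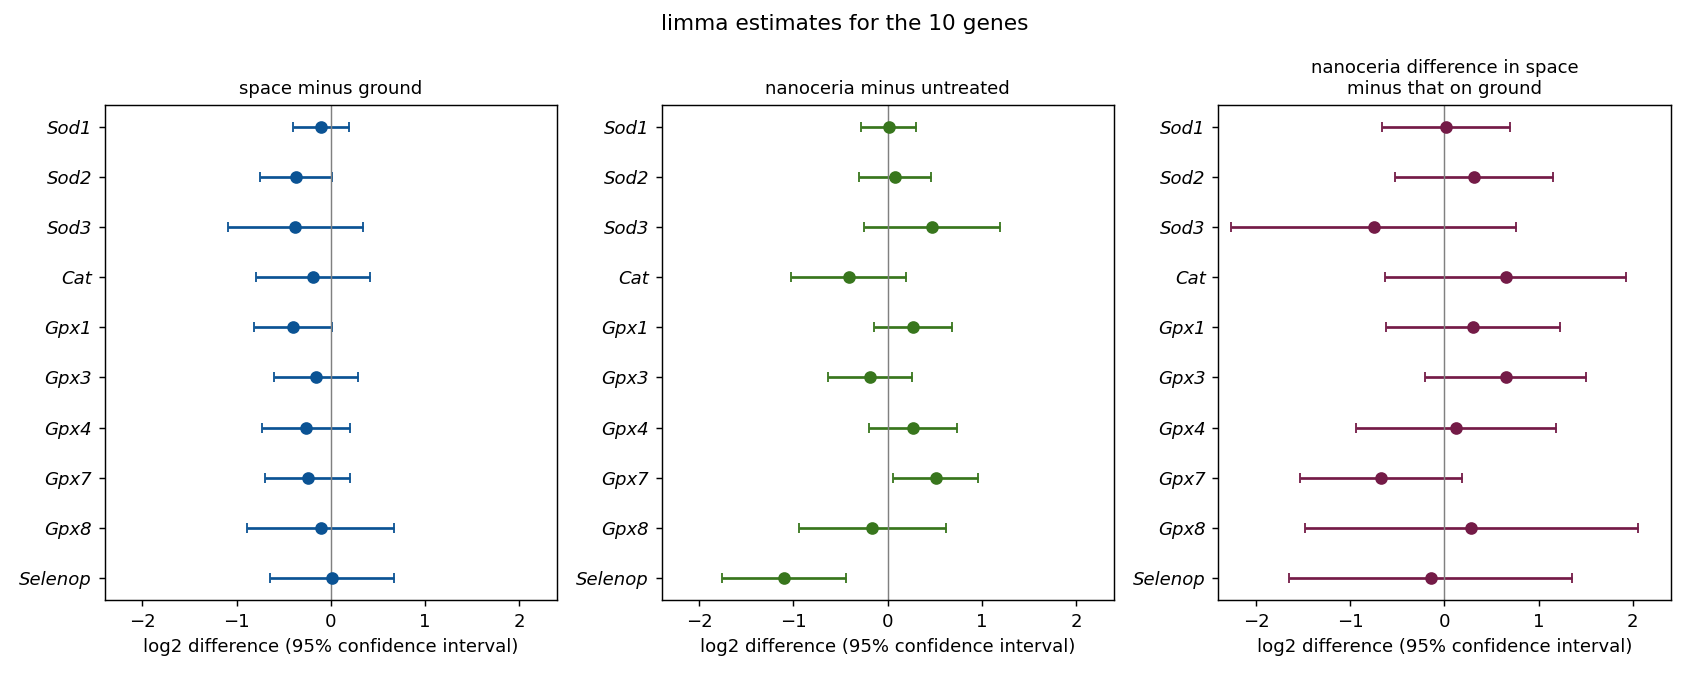
Estimated log2 differences (points, horizontal axis) with 95% confidence intervals (bars) for the 10 genes (vertical axis), for space minus ground, for nanoceria minus untreated, and for the nanoceria difference in space minus that on ground. The intervals of Selenop (-1.76 to -0.44) and Gpx7 (0.06 to 0.96) for nanoceria minus untreated are the only ones shown that leave out 0, and no estimate shown passed after adjustment over all probe sets.

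On ground alone, 3 treated arrays were set against 2 untreated arrays. Gpx7 was higher with nanoceria by 0.75 ± 0.22, with 10.92 ± 0.18 (SD, n = 3) in treated and 10.17 ± 0.43 (SD, n = 2) in untreated cells. Selenop was lower, at -1.05 ± 0.38, with 4.76 ± 0.06 (SD, n = 3) in treated and 5.80 ± 1.05 (SD, n = 2) in untreated cells. These were 2 of the 10 at an unadjusted p below 0.05, beside 11% of all probe sets, and neither passed after adjustment in limma (adjusted p = 0.31 for Gpx7 and 0.399 for Selenop). Groups did not overlap for Gpx7 (higher), Selenop and Gpx3 (lower), which is 3 of the 10, beside 26.3% of all probe sets. Sod3 lay at 0.74 ± 0.39, Cat at -0.64 ± 0.33 and Gpx3 at -0.42 ± 0.22.

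Which untreated ground array was used set the size, and in 5 genes the sign, of the ground difference. Against ground untreated replicate 1 alone, Selenop lay at -0.30, Gpx7 at 0.45, Cat at -0.03 and Sod3 at 1.27. With ground untreated replicate 3 as the only untreated array they lay at -1.79, 1.06, -1.25 and 0.21, and Selenop then passed (adjusted p = 0.0249 in limma, with the lone untreated array assumed to vary like the other groups). In that fit 167 of all probe sets passed, against 0 with both untreated arrays. Selenop, Gpx7, Cat, Sod3 and Gpx3 had the same sign with either array. Sod1, Sod2, Gpx1, Gpx4 and Gpx8 were higher with nanoceria against replicate 1 and lower against replicate 3, by 0.15 and -0.13 for Sod1, 0.43 and -0.10 for Gpx1, and 0.26 and -0.79 for Gpx8. Gpx3 lay farther from 0 against replicate 1, at -0.76 against replicate 1 and -0.08 against replicate 3.

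**Figure D3:**
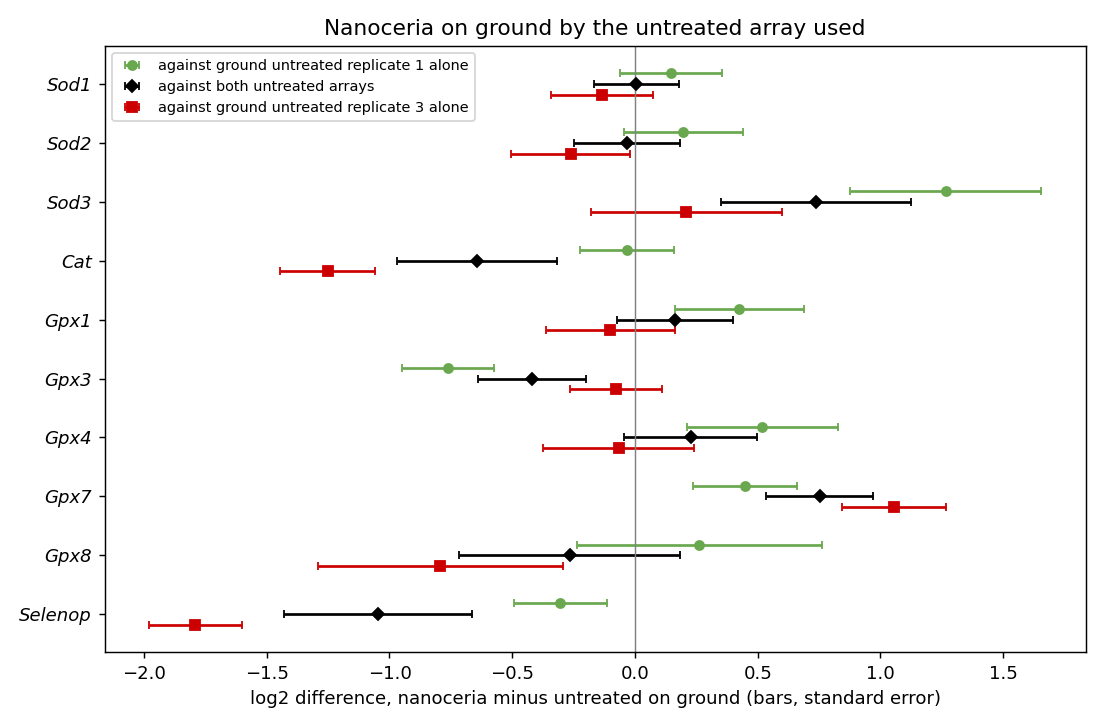
Log2 difference between nanoceria-treated and untreated cells on ground (horizontal axis; points with standard error bars) for the 10 genes (vertical axis), fitted with both untreated arrays or with each alone. For Selenop the estimates are -0.30, -1.05 and -1.79 by the untreated array used, and for Sod1, Sod2, Gpx1, Gpx4 and Gpx8 the points lie on both sides of 0.

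Within nanoceria-treated cells, 2 space arrays were compared with 3 ground arrays. Gpx7 lay lower in space by the most relative to its error, at -0.49 ± 0.22 (adjusted p = 0.61 in limma), with 10.44 ± 0.08 (SD, n = 2) in space and 10.92 ± 0.18 (SD, n = 3) on ground. Sod3 lay at -0.64 ± 0.39, and Selenop at -0.04 ± 0.38, with treated levels of 4.72 in space and 4.76 on ground. Of the 10 genes 8 were lower in space (median -0.16), beside 58.6% of all probe sets (median -0.05). Of the 10, 0 passed either with adjustment (0% of all probe sets) or at an unadjusted p below 0.05 (8.41% of all probe sets). Groups did not overlap for 2 of the 10 (Sod2 and Gpx7, both lower), beside 31.2% of all probe sets.

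The interaction asked whether the nanoceria difference in space differed from that on ground, and it rested on the single untreated space array. None of the 10 passed (adjusted p = 1 for each in limma), and 0 had an unadjusted p below 0.05, beside 2.35% of all probe sets. For Selenop the treated space arrays averaged 1.19 below the untreated one, and the treated ground arrays averaged 1.05 below theirs, a difference of -0.15 ± 0.64. For Gpx7 the treated space arrays averaged 0.08 above the untreated one, beside 0.75 on ground, a difference of -0.67 ± 0.37 with a 95% confidence interval of -1.53 to 0.19. Sod3 and Cat had interaction estimates of -0.75 ± 0.65 and 0.65 ± 0.55. The Gpx7 difference between regimes was thus not detected, and the smallest difference that these arrays could show was not worked out.

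The family did not vary as a block. Over the 45 pairs of members, Pearson's r across the 8 arrays ran from -0.777 (Gpx7 with Selenop) to 0.95 (Sod2 with Gpx1), with a median of 0.309 and 15 pairs below 0. Sod1, Sod2, Gpx1 and Gpx4 formed the closest group, with r from 0.765 to 0.95 over their 6 pairs. These points share arrays. For each gene of this group, ground nanoceria replicate 1 was the highest array and ground untreated replicate 3 the second highest. Leaving out these 2 arrays narrows the range of these genes by choice. The values without them therefore do not show how far the likeness rests on them. Without ground nanoceria replicate 1 and ground untreated replicate 3, r was 0.917 for Sod2 with Gpx1 and 0.877 for Gpx1 with Gpx4, but -0.0993 for Sod1 with Sod2 and 0.0101 for Sod1 with Gpx1. Cat and Selenop had r = 0.803 over 8 arrays and -0.254 over those 6. For Gpx1 and Selenop the values were -0.0663 over 8 arrays and -0.847 over those 6. These correlations describe 8 arrays and were not tested.

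**Figure D4:**
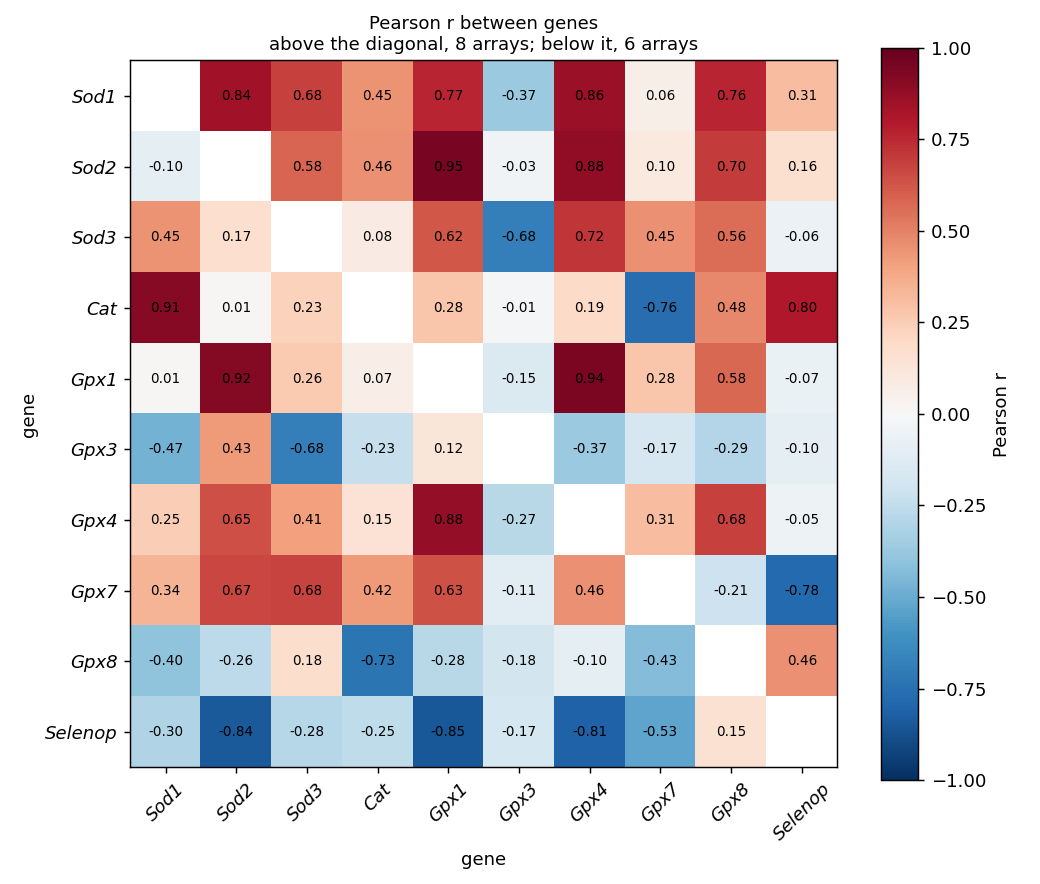
Pearson's r between pairs of the 10 genes (both axes), over all 8 arrays above the diagonal and over the 6 arrays left without ground nanoceria replicate 1 and ground untreated replicate 3 below it. Sod2, Gpx1 and Gpx4 keep positive values on both sides, at 0.917, 0.877 and 0.646 below the diagonal, whereas Sod1 with Sod2 lies near 0 there.

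Genes that act beside the family were read in 5 lists. No gene of these lists passed after adjustment in any of the 5 comparisons with limma (0 genes). The enzyme partners, such as copper chaperones, glutathione enzymes and peroxisomal import receptors, had 9 of 14 genes lower in space (median -0.11), beside 58.7% of all probe sets (median -0.04). They were led by Gss, glutathione synthetase, at -0.73 ± 0.28 (adjusted p = 0.479), and Ccs, the copper chaperone that loads Sod1, at -0.46 ± 0.19 (adjusted p = 0.503). Like Sod1 and Gpx1, both were highest on ground nanoceria replicate 1, with Ccs at 10.68 and Gss at 9.633. Gss was nearly as high on ground untreated replicate 3, at 9.626. By array the median deviation of the 14 genes was 0.15 on ground nanoceria replicate 1 and between -0.15 and 0.07 elsewhere.

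Gpx1, Gpx3, Gpx4 and Selenop depend on selenocysteine incorporation. The list read for it also held Scly and Lrp2, which are not part of the incorporation step. Of its 10 measured genes, 4 had an unadjusted p below 0.05 with nanoceria, 1 higher and 3 lower, beside 9.63% of all probe sets. Secisbp2l, a paralogue of the SECIS-binding protein, lay at -1.03 ± 0.26 with nanoceria (adjusted p = 0.406 in limma) and 0.81 ± 0.26 in space. Its levels were 9.48 and 9.21 in treated and 9.65 in untreated cells in space, against 7.88, 7.95 and 8.55 in treated and 9.52 and 9.62 in untreated cells on ground. The 3 treated ground arrays were the lowest of all 8. Pstk, the kinase that prepares selenocysteyl-tRNA, lay at -0.62 ± 0.18 with nanoceria (adjusted p = 0.416) and 0.66 ± 0.18 in space (adjusted p = 0.398). Eefsec, the elongation factor for selenocysteine, lay the opposite way with nanoceria, at 0.35 ± 0.12 (adjusted p = 0.453). The list as a whole was split, with 5 of 10 genes higher and 5 lower with nanoceria and a median of 0.04.

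Other selenoprotein genes were higher with nanoceria for 10 of 14 (median 0.14), beside 56% of all probe sets (median 0.03). This direction was opposite to that of Selenop. Selenom, a redox protein of the endoplasmic reticulum, lay at 0.46 ± 0.18 (adjusted p = 0.479 in limma), with Selenoi at -0.31 ± 0.14. Of the 14, 8 were highest on ground nanoceria replicate 1. Among genes for superoxide and peroxide sources, 6 of 13 were higher with nanoceria, beside 56% of all probe sets. Maoa, a monoamine oxidase that releases hydrogen peroxide in mitochondria, lay at -0.94 ± 0.35 (adjusted p = 0.465), with 8.58 to 9.29 on treated arrays, against 9.12 in untreated space cells and 9.71 and 10.87 in untreated ground cells. Xdh, xanthine dehydrogenase, lay at -0.69 ± 0.27 in space (adjusted p = 0.489), and Nox4, an oxidase that makes hydrogen peroxide, at -0.36 ± 0.16 with nanoceria. The remaining glutathione peroxidase genes Gpx2, Gpx5 and Gpx6 were dim, above 24.3%, 1.84% and 26.9% of probe sets, and differed by 0.21 or less for space or nanoceria over all arrays. Gpx6 measured 5.55 and 5.46 in treated space cells, against 5.23, 5.13 and 4.93 in treated ground cells. It was the 1 gene of these 3 at an unadjusted p below 0.05 there, beside 8.41% of all probe sets, and did not pass after adjustment. For nanoceria on ground it lay at -0.33 ± 0.16 (adjusted p = 0.508 in limma).

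For the 3 members with the widest range, the named genes most like them over the 8 arrays were listed by Pearson's r, out of 15011 genes and with no test. Selenop was most like Polr3f (r = 0.981), Galnt7 (0.972), Kcnk4 (0.971) and Magea13 (0.962). Sod3 was most like Tm7sf3 and Anapc5 (0.98 each), with Avpr1a and Tex261 at 0.979. For Gpx8 the closest were Fuca2 (0.991), Cox7a2 (0.988), Jtb (0.98) and Snapin (0.98).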

How the data were processed

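Total RNA, 30 ng per sample, from 8 H9c2 samples was measured on 1 array each. The deposited intensity values were made by the authors with RMA, as credited to the submitters' processing notes. Its software and settings are not given in the sources used here. They were linear (8.63 to 19506), so log2 was taken with no pseudocount. The array's genomic reference was Rnor_6.0, per the labels' protocols, whereas promoter sequences and positions are RefSeq's of GRCr8, used for sequence only. Of 23188 probe sets, 15049 carried a symbol and 8139 had none here.

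Differences were fitted over all probe sets with limma 3.58.1 in R 4.3.3, with p adjusted by Benjamini-Hochberg and a threshold of 0.05. Space against ground and nanoceria against untreated came from one model with both factors and no interaction, which left 5 residual degrees of freedom. The other comparisons came from a model of group means with 4. The fits were also run on simulated data with independent noise and no array that stood apart. That check does not bear on the arrays that stood apart here. The members, the gene lists and the rule for named genes (all 10 members, the 3 smallest p of each list, and the 4 closest genes by r for the 3 widest members) were chosen with earlier results of these data known. Same-numbered arrays did not deviate together (r of deviations from group means, -0.348 to -0.0133), so no pairing was used. Ground untreated replicate 2 was not analysed here. Alternatives were cyclic loess scaling, array medians made equal, only the brighter 66.7% of probe sets, other variance settings, array weights, the replicate number as a block and leaving out each array.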

Additional observations from a re-analysis of the deposited data

Results flagged for a closer look

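Among 5 ground arrays and, separately, 5 nanoceria arrays, 4 of 20 gene and group combinations had an array farther from its neighbours than Dixon's 95% critical value allows, where chance gives about 1 in 20. Cat was at 13.17 on ground untreated replicate 3, with the next ground array at 12.00. Selenop was at 6.55 on the same array, with the next at 5.06. Gpx3 was at 6.86 on ground untreated replicate 1, with the next at 6.18. Gpx4 was at 11.93 on ground nanoceria replicate 1, with the next treated array at 11.33. Each group here joins 2 of the study's groups, so a treatment or regime difference lies within it. The 20 combinations also share arrays, and no share over all probe sets is given. The 4 of 20 therefore cannot be read as an excess particular to these genes.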

How the results depend on the processing

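Over 15 alternative settings, 673 of 735 values of the 10 genes kept their sign and their side of the threshold, 61 turned sign and 1 came to pass it, the Selenop difference on ground without ground untreated replicate 1. The cause of these changes was not tested. Some of the 735 values could not turn sign, since their setting left the estimate as it was. This held for the variance settings, the brighter probe sets and leaving out an array that a difference did not use. The 673 are therefore no measure of how stable the estimates are. With cyclic loess scaling, Sod1 lay at -0.066 for nanoceria over both regimes and at -0.11 on ground, and in treated cells the space differences were 0.031 for Gpx8 and 0.023 for Selenop. With equal array medians, Sod2 lay at 0.0085 for nanoceria on ground and Sod1 at -0.035 for the interaction. With array weights, Selenop lay at -0.017 in space and Sod1 at -0.0040 for nanoceria over both regimes and -0.024 on ground, and 4 probe sets passed for space. With the replicate number as a block, a pairing that the arrays did not bear out, 0 probe sets passed in any comparison, against 0 without it, and Cat lay at 0.059 in space, Sod2 at 0.019 for nanoceria on ground and Selenop at 0.19 for space in treated cells. With both arrays that stood apart left out, chosen after the data were seen, the space values were 0.0060 for Sod1 and 0.31 for Gpx8, and in treated cells -0.021 for Cat, 0.0057 for Gpx4 and 0.35 for Gpx8. In that fit Cat lay at 0.018 for nanoceria over both regimes and 0.030 on ground, Sod2 at 0.053 on ground, and the interaction was -0.035 for Sod1 and -0.024 for Cat.

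Leaving out 1 array at a time gave 0 to 1 probe sets past the threshold for space and 0 to 167 for nanoceria on ground, the 167 without ground untreated replicate 1. For space over both treatments, values ran from -0.33 to 0.043 for Cat, -0.26 to 0.078 for Gpx3, -0.34 to 0.095 for Gpx8 and -0.21 to 0.23 for Selenop. For nanoceria over both regimes they ran from -0.063 to 0.086 for Sod1, -0.032 to 0.24 for Sod2, -0.42 to 0.066 for Gpx3 and -0.41 to 0.15 for Gpx8. On ground they ran from -0.13 to 0.15 for Sod1, -0.26 to 0.20 for Sod2, -0.10 to 0.43 for Gpx1, -0.066 to 0.52 for Gpx4 and -0.79 to 0.26 for Gpx8. For space in treated cells they ran from -0.021 to 0.087 for Cat, -0.34 to 0.0057 for Gpx4, -0.37 to 0.35 for Gpx8 and -0.12 to 0.049 for Selenop. For the interaction they ran from -0.13 to 0.15 for Sod1, -0.17 to 0.41 for Gpx4, -0.25 to 0.81 for Gpx8 and -0.89 to 0.60 for Selenop. Among differences that kept their sign, Sod3 for nanoceria ran from 0.11 to 0.74 over both regimes and from 0.21 to 1.27 on ground, and Gpx7 for space ran from -0.49 to -0.14 and lay at -0.41 with the replicate block. The interaction could not be fitted without the untreated space array, and Selenop was too dim for the setting that kept the brighter probe sets. Without a measure of signal over background, how much of the low Selenop and Gpx3 levels is background is unknown.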

Other observations

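The lists read for the state of the cultures differed most on ground untreated replicate 3. For nanoceria against untreated over both regimes, 13 of 13 cell cycle genes were higher (median 0.80), 11 of 11 muscle identity genes were higher (median 0.38) and 13 of 13 NRF2 target genes were lower (median -0.31), with 0 genes past the adjusted threshold in limma in each list and 2, 0 and 1 at an unadjusted p below 0.05. Among all probe sets 56% were higher, 44% were lower and 9.63% had an unadjusted p below 0.05. On ground alone the directions were the same, with 3 of 13 cell cycle, 6 of 11 muscle identity and 4 of 13 NRF2 target genes at an unadjusted p below 0.05, beside 11% of all probe sets. These counts were not refitted without ground untreated replicate 3. On it, the median deviation from the 8-array means was -2.15 for cell cycle, -0.65 for muscle identity and 0.91 for NRF2 target genes. On ground untreated replicate 1 the medians were 0.23, -0.20 and -0.20, and on the untreated space array 0.24, 0.12 and -0.27. Those of treated arrays ran from -0.12 to 0.63, -0.03 to 0.28 and -0.29 to 0.02, in the same order. In space against ground, 12 of 13 cell cycle genes were higher (median 0.53), beside 41.3% of all probe sets. The ground side there held ground untreated replicate 3. Within treated cells, which leave that array out, 8 of 13 were higher in space (median 0.13), beside 41.4% of all probe sets. The summed log2 level of the muscle identity genes was 86.6 on ground untreated replicate 3 and 94.5 to 102 on the other arrays. Of 10 marker genes of other cell types, 2 were higher and 8 lower in space, beside 58.7% of all probe sets lower, and their summed level lay between 58.6 and 61.9 on every array.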
